A study of Macaca fascicularis with 4 samples.

Results

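Glycolysis and the response to low oxygen were followed through 32 genes in cynomolgus monkey (Macaca fascicularis) embryos: the enzymes from hexokinase to lactate dehydrogenase, the carriers that move glucose into and lactate out of the cell, and genes known to be switched on when oxygen is low. The genes were chosen by symbol, and 31 of the 32 symbols are among the 26223 gene rows of the tables. LDHA, which makes lactate from pyruvate, is not among the gene names. The row LOC101867330 carries the symbol LDHA in NCBI RefSeq's gene table for the assembly T2T-MFA8v1.1, where its locus lies within the span of MYCBP2, so it is given separately below and is not counted with the 31 genes.

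The series title concerns where the gonad's somatic cells come from in the embryo. Single cells were sequenced in droplets from their transcript 3′ ends. There are 4 libraries, 1 per stage, from embryos of 24 days (E24, Carnegie stage 11), 28 days (E28, Carnegie stage 13), 31 days (E31, Carnegie stage 14) and 37 days (E37, Carnegie stage 18). At E24, where the title names 2 embryos, the trunk was kept after the heart and all tissue in front of it, the posterior growth zone, the yolk sac and the amnion were removed. At E28 and E31 the urogenital ridge was taken with its mesonephros (the transient embryonic kidney), coelomic epithelium and part of the neighbouring mesentery. At E37 the piece was mostly gonadal ridge, with some mesonephros, presumed adrenal and mesentery attached. Sex and strain are not stated, no treatment is stated, and all tissue was dissociated with trypsin and EDTA. Stage, tissue taken, embryo and library change together and cannot be told apart.

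Glycolysis splits glucose into pyruvate in the cytosol, and lactate dehydrogenase turns pyruvate into lactate when respiration is not used. Several steps have more than 1 isoform, each from its own gene and used to different extents by muscle, neurons and other tissues. When oxygen is scarce, prolyl hydroxylases stop marking the HIF alpha subunits for breakdown, and HIF dimers then raise the transcription of many glycolytic enzymes, of glucose carriers, and of genes for vessel growth, acid balance and mitochondrial removal. Early mammalian embryos develop at low oxygen before their circulation and placenta mature.

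The libraries held 10639, 5028, 6661 and 5298 cell barcodes, with totals of 115332663, 62477350, 72233442 and 40243286 unique molecular identifiers (UMIs, each counting 1 captured transcript). After 5 barcodes at E37 with under 500 genes were left out, median UMIs per barcode ran from 6674 at E37 to 11391 at E28. Pairs of libraries shared 37 to 111 barcode sequences, at most 1.67% of the smaller library. Levels are given as CPM, the UMIs of a gene per 1000000 UMIs of the library or barcode set. A UMI counts a transcript end, so levels of different genes need no correction for transcript length. Reads from near-identical gene copies may still be assigned to either copy or to none. Whether each row holds all reads of its gene, and only those, was not tested, which also limits the isoform shares. With 1 library per stage there is no test and no replicate check. Intervals are exact 95% intervals that cover counting error only. A ratio is said to pass when it is 1.5-fold or more with at least 50 UMIs over both sides, which says nothing about spread between embryos. Where a set of barcodes is compared with the rest, those 50 UMIs may lie nearly all in the rest. Whole-library values cannot tell fewer cells of a type from less RNA per cell.

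GAPDH, the step that makes the first NADH of the pathway, was the most abundant member in every library, with 2197, 2327, 2124 and 1985 CPM. Values of this kind run in stage order, E24 first and E37 last. TPI1, which interconverts the 2 triose phosphates, stood at 1303, 699.7, 721 and 668 CPM. ENO1, the widely used enolase, stood at 1146, 599, 538 and 477 CPM. GAPDH thus stayed within a narrow band, while TPI1 and ENO1 were high at E24 and lower in the other libraries. The plot of whole-library levels by stage shows this difference between the members.

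**Figure D1:**
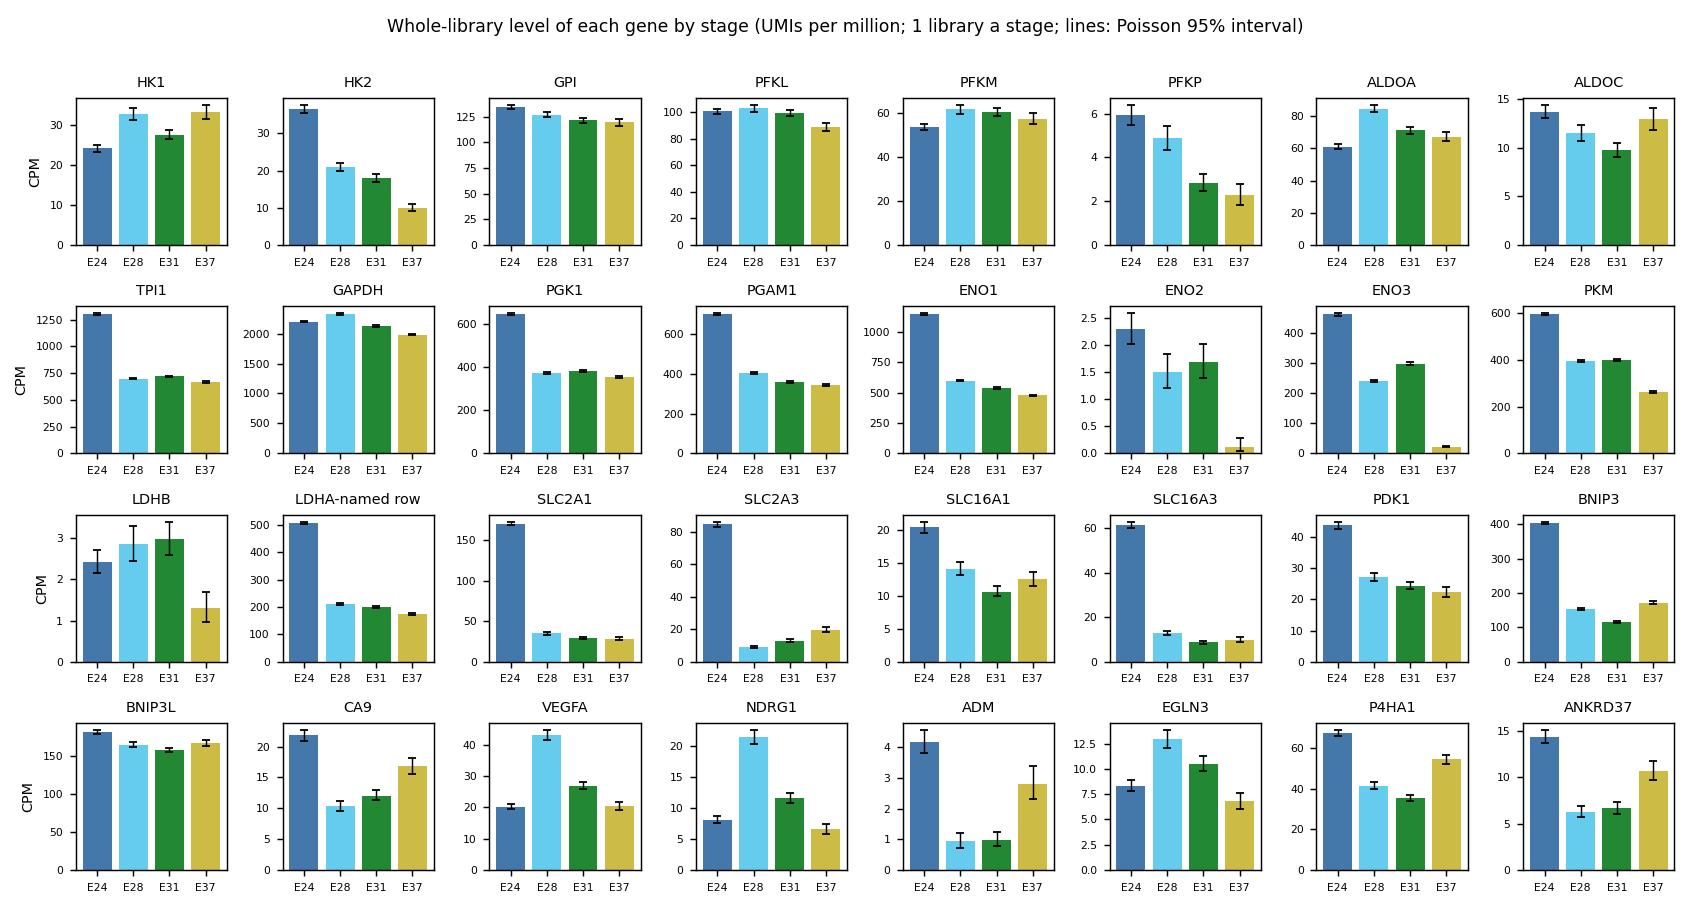
Each panel plots 1 gene, with the stage on the x axis and CPM on the y axis; each bar is 1 library and its line the exact Poisson 95% interval. TPI1, ENO1, PGK1, PGAM1 and the carriers SLC2A1, SLC2A3 and SLC16A3 are highest at E24, GAPDH, GPI and PFKL are near level, and ENO3 is lowest at E37.

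Between E24 and E28, 17 of the 31 members were lower and 3 higher at E28 by the 1.5-fold rule. Over all genes measured the direction was the opposite, with 10.7% lower and 30.5% higher. The median log2 ratio was -0.61 over the members and 0.24 over all 16157 genes measured. By role, 8 of 17 enzymes were lower and 0 higher, 3 of 4 carriers were lower and 0 higher, and 6 of 10 hypoxia response genes were lower and 3 higher. When all ratios were divided by the median ratio, 18 members were lower and 2 higher.

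Along the pathway, the lower enzymes at E28 were HK2 and, from the triose phosphates onward, TPI1, PGK1, PGAM1, ENO1, ENO2, ENO3 and PKM. GAPDH (1.06-fold higher) and LDHB (1.18-fold higher) of that stretch did not pass, nor did HK1 at the hexokinase step (1.36-fold higher). HK2, the inducible hexokinase that traps glucose in the cell, stood at 36.6, 21.0, 18.04 and 10.1 CPM and was 1.74-fold lower (1.64 to 1.85) at E28 than at E24. TPI1 was 1.86-fold lower, PGK1, which makes the first ATP, 1.73-fold lower, and PGAM1, which moves the phosphate for the enolase step, 1.73-fold lower. ENO1 was 1.91-fold, ENO3 1.92-fold and ENO2 1.53-fold lower. PKM, which makes pyruvate and the second ATP, was at the threshold, 1.51-fold lower (1.48 to 1.53), with 595, 395, 398 and 263 CPM. PGK1 had 643, 372, 381 and 353 CPM and PGAM1 699.96, 404, 361 and 345 CPM, so these genes too were high at E24 alone.

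The other enzymes of the upper pathway did not pass between E24 and E28. GPI, which turns glucose 6-phosphate into fructose 6-phosphate, stood at 134, 127, 121 and 119.8 CPM. PFKL, the liver-type phosphofructokinase and the committed step, stood at 100.5, 103, 99.1 and 88.6 CPM, and the muscle-type PFKM at 53.6, 61.8, 60.7 and 57.6 CPM. ALDOA, the aldolase of muscle and most embryonic tissue, stood at 61.0, 84.6, 71.1 and 67.3 CPM, and HK1, the constitutive hexokinase, at 24.03, 32.6, 27.5 and 33.04 CPM. Both ALDOA and HK1 were lowest at E24, unlike the enzymes of the lower pathway. The brain-type aldolase ALDOC (13.7, 11.5, 9.72 and 12.9 CPM) and the platelet-type PFKP (5.93, 4.87, 2.84 and 2.26 CPM) were much less abundant, and PFKP passed only between E28 and E31, 1.71-fold lower (1.43 to 2.06). LDHB, the lactate dehydrogenase of oxidative tissue, was among the least abundant members, with 279, 178, 215 and 52 UMIs, or 2.42, 2.85, 2.98 and 1.29 CPM. The LDHA-named row stood at 508, 211, 200.3 and 174 CPM and was 2.41-fold lower (2.37 to 2.46) at E28 than at E24.

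The carriers showed the widest gap between E24 and the later libraries. SLC2A3, the high-affinity glucose carrier GLUT3, stood at 84.4, 8.98, 12.9 and 19.7 CPM, 9.40-fold lower (8.63 to 10.3) at E28. SLC2A1, the GLUT1 carrier of most embryonic cells and of red cells, stood at 171, 35.1, 29.3 and 28.4 CPM, 4.87-fold lower (4.66 to 5.09) at E28. SLC16A3, the MCT4 carrier that exports lactate, stood at 61.6, 12.997, 8.68 and 9.995 CPM, 4.74-fold lower (4.41 to 5.10) at E28. For all 3 genes E24 stood far above the other 3 libraries. SLC16A1, the MCT1 carrier that moves lactate either way, stood at 20.5, 14.1, 10.7 and 12.6 CPM and did not pass at any step. The summed level of the 4 carriers was 337, 71.2, 61.6 and 70.7 CPM, 4.74-fold lower at E28, against 1.36-fold for the summed enzymes (7481, 5489.7, 5238 and 4506 CPM).

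The hypoxia response genes divided into a larger set that was lower at E28 and a smaller one that was higher. BNIP3, which marks mitochondria for removal, stood at 405, 155, 117 and 172 CPM, 2.61-fold lower (2.56 to 2.67) at E28. ADM, the vessel-acting peptide adrenomedullin, had 481, 59, 71 and 113 UMIs (4.17, 0.944, 0.983 and 2.81 CPM), 4.42-fold lower (3.36 to 5.89) at E28 and 2.86-fold higher (2.11 to 3.90) at E37 than at E31. Both were highest at E24, and BNIP3 stood 1.48-fold higher at E37 than at E31, short of the threshold. ANKRD37, an ankyrin repeat gene, stood at 14.4, 6.27, 6.66 and 10.6 CPM, and the carbonic anhydrase CA9, which balances acid at the cell surface, at 21.8, 10.4, 12.1 and 16.8 CPM. P4HA1, a collagen prolyl hydroxylase subunit, stood at 67.5, 41.5, 35.5 and 54.5 CPM, and PDK1, the kinase that keeps pyruvate out of the mitochondrion, at 43.7, 27.2, 24.3 and 22.3 CPM. These 4 genes were 1.61- to 2.29-fold lower at E28, and all but PDK1 stood higher at E37 than at E31, with P4HA1 (1.53-fold) and ANKRD37 (1.60-fold) passing.

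VEGFA, the main vessel growth factor, went the other way, with 20.2, 43.0, 26.9 and 20.4 CPM, 2.13-fold higher (2.01 to 2.25) at E28 and 1.60-fold lower at E31 than at E28. The higher level at E28 rests on a set of barcodes that is not reported here: without them VEGFA did not pass between E24 and E28, in the whole library or in WT1 barcodes. NDRG1, a stress-responsive gene of epithelia and glia, stood at 8.13, 21.4, 11.6 and 6.54 CPM, 2.63-fold higher (2.42 to 2.86) at E28. EGLN3, a prolyl hydroxylase that is itself raised by HIF, stood at 8.36, 12.9, 10.5 and 6.79 CPM, 1.55-fold higher at E28. All 3 were highest at E28 and near or below their E24 level at E37. BNIP3L, the relative of BNIP3 that clears mitochondria from maturing red cells, was level at 183, 166, 159 and 168 CPM.

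Between E28 and E31, 3 of the 31 members were lower (NDRG1 1.84-fold, PFKP 1.71-fold and VEGFA 1.60-fold) and 0 were higher, where 8.80% of all genes were lower and 3.49% higher. Between E31 and E37, 7 were lower and 4 higher, where 15.3% of all genes were lower and 15.0% higher. The 4 higher were ADM, ANKRD37, P4HA1 and SLC2A3, and the 7 lower were ENO2, ENO3, LDHB, HK2, NDRG1, EGLN3 and PKM. ENO3, the muscle enolase, stood at 463, 241, 299 and 22.7 CPM and was 13.2-fold lower (12.4 to 14.1) at E37 than at E31. ENO2, the neuronal enolase, had 265, 94, 122 and 5 UMIs and was 13.6-fold lower (5.67 to 42.6). E37 was thus apart from the other libraries for these 2 enolases, while ENO1 differed by 1.13-fold over the same step. In the RefSeq gene table ENO3 lies between PFN1 and SPAG7, and whether all counts on its row come from ENO3 was not tested. The labels name more than 1 chemistry version without saying which library used which, so chemistry and stage cannot be told apart for this gap.

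Immediate early and heat shock genes, which tissue dissociation can raise, differed between the libraries as well. Their summed level was 2991, 3064, 2302 and 4035 CPM. Of the 12 listed, 9 were higher and 1 lower at E28 than at E24, 9 were lower at E31 than at E28, and 9 were higher at E37 than at E31. Over all genes, 30.5% were higher and 10.7% lower at the first step, 8.80% lower at the second and 15.0% higher at the last. Their part in the results on the members was not tested.

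The same stage steps were then read within barcodes that held at least 1 UMI of a marker: PECAM1 for endothelium (334, 291, 383 and 230 barcodes), SOX10 for neural crest and glia (41, 62, 98 and 244), PAX8 for nephric cells (520, 2383, 2487 and 121), WT1 for coelomic epithelium, podocytes and gonadal ridge (527, 2960, 3507 and 1757) and ACTA2 for smooth muscle and pericytes (832, 165, 287 and 160). Against the rest of the library, 7 of 7 further markers were 2-fold or more higher in PECAM1 and in SOX10 barcodes at every stage. In PAX8 barcodes 3, 5, 5 and 6 of 7 were, with CDH16 at 0 at E24, and in WT1 barcodes 1, 4, 4 and 4 of 6, with NPHS1 at 0 at E24, so at E24 the WT1 label rests on little beside WT1. In ACTA2 barcodes 5 of 7 were. The pericyte genes PDGFRB and RGS5 were not at any stage. RGS5 stood below the rest in every library, with 40.1 against 76.3 CPM at E24 and 35.8 against 93.9 CPM at E31. The pericyte part of the ACTA2 label is thus not borne out by these markers. The sets overlap: 68.6% of PAX8 barcodes at E28 and 69.1% at E31 also held WT1, and 128 of 165 ACTA2 barcodes at E28 and 232 of 287 at E31 fell in another set too. Cells were not clustered and doublets were not removed, so the sets are barcodes with a marker and not cell types.

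The lower levels at E28 were seen in all 5 sets. In PECAM1 barcodes 15 of 29 members measured were lower and 0 higher at E28 than at E24 (all genes: 8.86% lower, 14% higher), and in SOX10 barcodes 9 of 16 were lower and 1 higher (13.6% and 18.8%). In PAX8 barcodes 13 of 30 were lower and 3 higher (6.0% and 28.3%), in WT1 barcodes 11 of 29 lower and 3 higher (7.34% and 24.7%), and in ACTA2 barcodes 16 of 28 lower and 3 higher (10.0% and 21.4%). TPI1, PGK1, ENO1, ENO3, SLC2A1 and BNIP3 were lower in all 5. The plot of E28 over E24 by set shows these genes below the line for 1.5-fold in every set.

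SLC2A1 stood at 94.5 CPM at E24 and 23.6 at E28 in PECAM1 barcodes, 130.4 and 17.4 in SOX10 barcodes, 109.8 and 41.0 in PAX8 barcodes, 106 and 36.9 in WT1 barcodes, and 140.3 and 31.4 in ACTA2 barcodes. Those steps are 3.996-, 7.48-, 2.68-, 2.88- and 4.47-fold. BNIP3 was 3.35-, 3.53-, 2.53-, 2.64- and 3.77-fold lower in the same order, so neither gene depended on 1 set. SLC2A3 was 16.9-fold lower in ACTA2 barcodes (90.6 to 5.37 CPM), 10.4-fold in PAX8, 8.25-fold in WT1 and 2.42-fold in PECAM1 barcodes (118 to 48.9 CPM). PECAM1 barcodes held 5.10% of all SLC2A3 UMIs at E24 and 38.3% at E28. Whether the steps differ between sets was not tested.

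VEGFA and NDRG1 were higher at E28 in some sets and not in others. NDRG1 went from 6.52 to 29.4 CPM in PAX8 barcodes (4.50-fold) and from 4.22 to 13.97 CPM in WT1 barcodes (3.31-fold), but stood at 7.35 and 7.03 CPM in ACTA2 barcodes and at 12.6 and 16.4 CPM in PECAM1 barcodes. VEGFA was 3.08-fold higher in PAX8, 2.46-fold in WT1 and 1.61-fold in ACTA2 barcodes, sets that share many barcodes, and stood at 18.4 and 16.6 CPM in PECAM1 barcodes. The ACTA2 call of VEGFA was lost with barcodes in 1 set only, which left 37 ACTA2 barcodes at E28. In that run 0 of 28 members were higher and 20 lower in ACTA2 barcodes, where 23.1% of all genes were higher and 23.8% lower. The limit given above for VEGFA applies to the WT1 value. ALDOA passed as higher in PAX8 (1.56-fold) and WT1 barcodes (1.62-fold), unlike in the whole library. Both ALDOA calls were lost when ratios were divided by the median ratio. Without that division 28.3% of all genes were higher in PAX8 and 24.7% in WT1 barcodes.

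**Figure D2:**
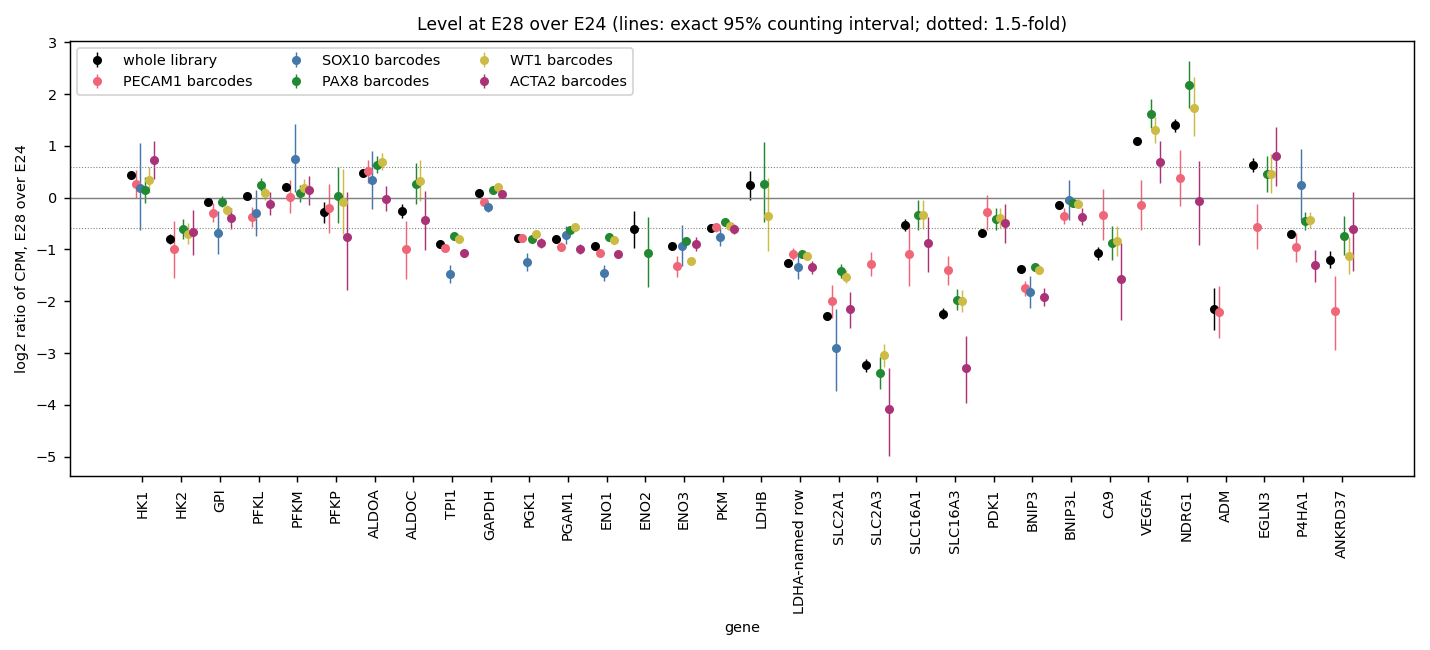
The x axis gives the genes and the y axis the log2 ratio of CPM at E28 over E24; points are the whole library and the 5 marker sets, lines are exact 95% counting intervals, and dotted lines mark 1.5-fold. TPI1, PGK1, ENO1, ENO3, SLC2A1 and BNIP3 lie below the lower dotted line in all sets, and NDRG1 and VEGFA lie above the upper one in the whole library and in PAX8 and WT1 barcodes.

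From E28 to E31 few members passed in any set. In PECAM1 barcodes 4 were lower and 1 higher (all genes: 4.88% lower, 3.79% higher), in SOX10 barcodes 2 lower and 0 higher (7.66% and 4.47%), and in PAX8 barcodes 3 lower and 1 higher (6.96% and 3.34%). In WT1 barcodes 2 were lower and 1 higher (7.59% and 3.44%) and in ACTA2 barcodes 1 lower and 0 higher (5.98% and 4.45%). NDRG1 was lower in PECAM1, SOX10, PAX8 and WT1 barcodes.

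From E31 to E37 the sets parted. In PAX8 barcodes 12 of 30 members were higher and 4 lower (all genes: 12.3% higher, 18.6% lower). The 12 included all 4 carriers and became 9, with 3 lower, when every barcode was weighted equally (13.1% and 19.2% of all genes). SLC2A3 rested on 11 UMIs at E37 (1.60-fold, 0.787 to 2.93) and SLC16A1 on 26 (1.71-fold, 1.10 to 2.53). SLC16A3 stood at 8.53 and then 38.9 CPM (4.56-fold), SLC2A1 at 33.8 and then 75.1 CPM (2.22-fold) and BNIP3 at 130.4 and then 454 CPM (3.48-fold). The PAX8 set at E37 held only 121 barcodes, of which 27 had 2 or more PAX8 UMIs; with that stricter rule at both stages 14 members were higher and 4 lower at E37, against 16.2% and 20.8% of all genes. In WT1 barcodes 4 of 30 were higher and 7 lower (13.2% and 15.0%), in ACTA2 barcodes 2 of 23 higher and 6 lower (15.6% and 20.3%), in PECAM1 barcodes 1 of 27 higher and 2 lower (6.56% and 12.1%), and in SOX10 barcodes 3 of 19 higher and 1 lower (14.8% and 6.33%). ENO3 was lower in all 5, by 8.57-, 6.70-, 3.64-, 10.1- and 27.2-fold in PECAM1, SOX10, PAX8, WT1 and ACTA2 barcodes, the last from 14 UMIs at E37. Its low level at E37 was thus not limited to 1 set of barcodes.

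Within each library, each set was also compared with all other barcodes. In PECAM1 barcodes 6 members passed as higher in at least 3 of the 4 libraries (HK1, PFKP, SLC2A3, SLC16A3, ADM and EGLN3) and 5 as lower (HK2, PFKM, ENO3, SLC2A1 and SLC16A1), where 11.8% of all genes were higher and 15.5% lower by the same rule. Taken library by library, 7, 6, 7 and 7 members were higher and 4, 8, 7 and 9 lower, near the background of 17.3%, 14.2%, 15.0% and 16% of all genes higher and 17.4%, 25.6%, 22.4% and 26.3% lower. ADM was lost without the deepest 5% of barcodes, SLC16A3 with barcodes in 1 set only, and the lower call of SLC2A1 with the median ratio or without the 50 most abundant genes. ADM stood at 44.8, 9.77, 10.7 and 13.7 CPM (188, 43, 55 and 32 UMIs), 17.01-, 35.5-, 44.7- and 6.39-fold above the rest. These few barcodes held 39.1%, 72.9%, 77.5% and 28.3% of all ADM UMIs, so most ADM at E28 and E31 came from endothelial-marker barcodes. SLC2A3 stood at 118, 48.9, 71.8 and 77.7 CPM, 1.42-, 8.20-, 8.55- and 4.81-fold above the rest: near the other barcodes at E24 and far above them later. HK1 was 1.75- to 2.06-fold and PFKP 3.56- to 5.16-fold above the rest in all 4 libraries.

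HK2 was lower in PECAM1 barcodes at E24 (20.3 CPM), E28 (10.2) and E31 (8.92), and ENO3 was lower in all 4 libraries, with 150.5, 60.0, 84.2 and 9.83 CPM. SLC2A1 stood at 94.5, 23.6, 21.5 and 17.5 CPM, below the level of SLC2A3 in the same barcodes at every stage. In the rest of each library the order was the reverse, with SLC2A1 at 174, 35.9, 29.9 and 29.1 CPM and SLC2A3 at 83.1, 5.96, 8.39 and 16.2 CPM.

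In SOX10 barcodes 0 members were higher in at least 3 libraries and 10 were lower, where 4.27% of all genes were higher and 11% lower. By library, 1, 3, 0 and 3 members were higher and 5, 12, 11 and 10 lower, against 12.1%, 10.8%, 9.45% and 14.6% of all genes higher and 17%, 22.5%, 21.9% and 23.1% lower. TPI1 stood at 417, 361 and 379 CPM at E28, E31 and E37, 1.69-, 2.02- and 1.81-fold below the rest. VEGFA had 8, 9, 10 and 16 UMIs and SLC2A1 81, 18, 14 and 23 UMIs. The others were HK2, PFKP, ALDOC, ENO3, SLC16A3, PDK1 and EGLN3. HK2 and PFKP were lost without the deepest 5% of barcodes and, with PDK1, at 2 UMIs of SOX10; HK2 was also lost with equal weights. PFKP rested on 2, 1, 1 and 4 UMIs, a ratio at E28 of 0.196 with an interval of 0.00496 to 1.10. NDRG1 stood out in the other direction at E37, with 26.5 CPM, 4.97-fold (3.67 to 6.64) above the rest.

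In PAX8 barcodes 5 members were higher in at least 3 libraries (HK2, ENO2, VEGFA, NDRG1 and EGLN3) and 2 lower (SLC2A3 and ADM), where 5.14% of all genes were higher and 6.06% lower. Of these, HK2, ENO2 and SLC2A3 held under every alternative run at 1.5-fold. ENO2 had only 28, 64, 84 and 0 UMIs in PAX8 barcodes and was not counted at E37. VEGFA and NDRG1 were lost with 2 UMIs of PAX8, VEGFA and EGLN3 with barcodes in 1 set only, EGLN3 also with equal weights and without the deepest 5% or ALAS2 barcodes, and ADM without the deepest 5% and in 1 set only. HK2 stood at 44.3, 29.0, 28.2 and 29.7 CPM, 1.23-, 2.28-, 2.64- and 3.10-fold above the rest. Its level in these barcodes was nearly flat after E28, though the E37 value rests on 32 UMIs. That of the whole library went on to 10.1 CPM at E37. At E37, 17 of 30 members were above the rest in PAX8 barcodes, against 13.3% of all genes. In WT1 barcodes VEGFA alone was higher and 4 were lower (PFKP, ENO2, NDRG1 and ADM), where 2.25% of all genes were higher and 6.63% lower. VEGFA stood there at 21.5, 52.9, 37.5 and 28.4 CPM, 1.07-, 1.91-, 2.69- and 1.73-fold above the rest. Of the 4 lower, PFKP and ENO2 were lost with 2 UMIs of WT1, ENO2 also with equal weights, and ADM without the deepest 5% of barcodes. Without the barcodes that limit the stage result, VEGFA was no longer higher in 3 libraries in PAX8 or WT1 barcodes. In ACTA2 barcodes 0 members passed in either direction in 3 libraries, where 1.29% of all genes were higher and 3.91% lower.

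**Figure D3:**
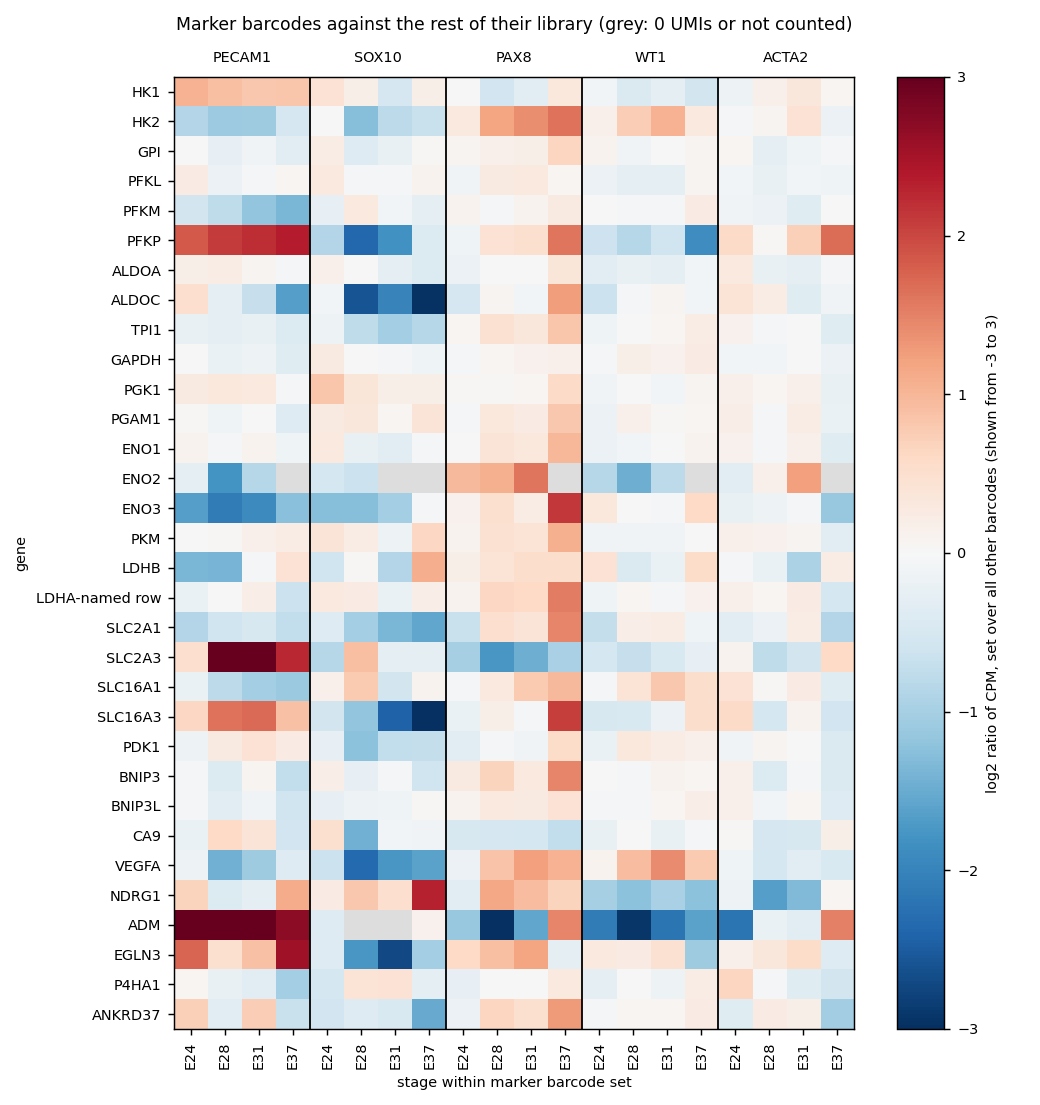
The y axis gives the genes and the x axis the 4 stages within each of the 5 marker sets; colour is the log2 ratio of CPM in the set over all other barcodes of that library, limited to 3 either way, and grey marks 0 UMIs or a gene not measured. ADM, SLC2A3 and PFKP are the members highest above the rest in PECAM1 barcodes, while ENO3 is below the rest there in all 4 libraries.

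Isoform shares within each enzyme or carrier family do not depend on library size. ENO3 made up 28.7%, 28.6%, 35.7% and 4.53% of enolase UMIs in the whole library and ENO1 nearly all of the remainder, with ENO2 at 0.0249% to 0.201%. In PECAM1 barcodes ENO3 made up 10.9%, 9.23%, 12.8% and 2.18%, and in WT1 barcodes 35.5%, 29.3%, 35.5% and 5.50%. The ENO3 share was lowest at E37 in the whole library and in every set.

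HK1 made up 39.7%, 60.8%, 60.4% and 76.6% of the UMIs of HK1 and HK2, so the balance lay with HK2 at E24 and with HK1 in the later libraries. In PECAM1 barcodes HK1 was the larger share at every stage (70.2%, 84.8%, 83.6% and 88.5%). In PAX8 barcodes it was the smaller at E24, E28 and E31 (35.0%, 47.5% and 46.1%) and reached 57.9% (46.0 to 69.1) at E37. For glucose carriers, SLC2A1 made up 66.9%, 79.6%, 69.4% and 59.0% of SLC2A1 and SLC2A3 UMIs in the whole library, 71.7%, 90.8%, 84.2% and 88.0% in PAX8 barcodes, and 44.4%, 32.6%, 23.1% and 18.4% in PECAM1 barcodes. The endothelial-marker share was lower at each later stage, and its intervals at E24 (41.1 to 47.7) and E37 (13.5 to 24.1) do not overlap.

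For lactate carriers, SLC16A1 made up 24.9% at E24 and 52.1%, 55.1% and 55.7% later, and stayed at 16.2% to 25.5% in PECAM1 barcodes. PFKL made up 59.7% to 62.8% of phosphofructokinase UMIs and ALDOA 81.7% to 88.1% of the UMIs of ALDOA and ALDOC, both close to level across the libraries. LDHB made up 0.474%, 1.33%, 1.46% and 0.740% of its own UMIs and those of the LDHA-named row together.

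**Figure D4:**
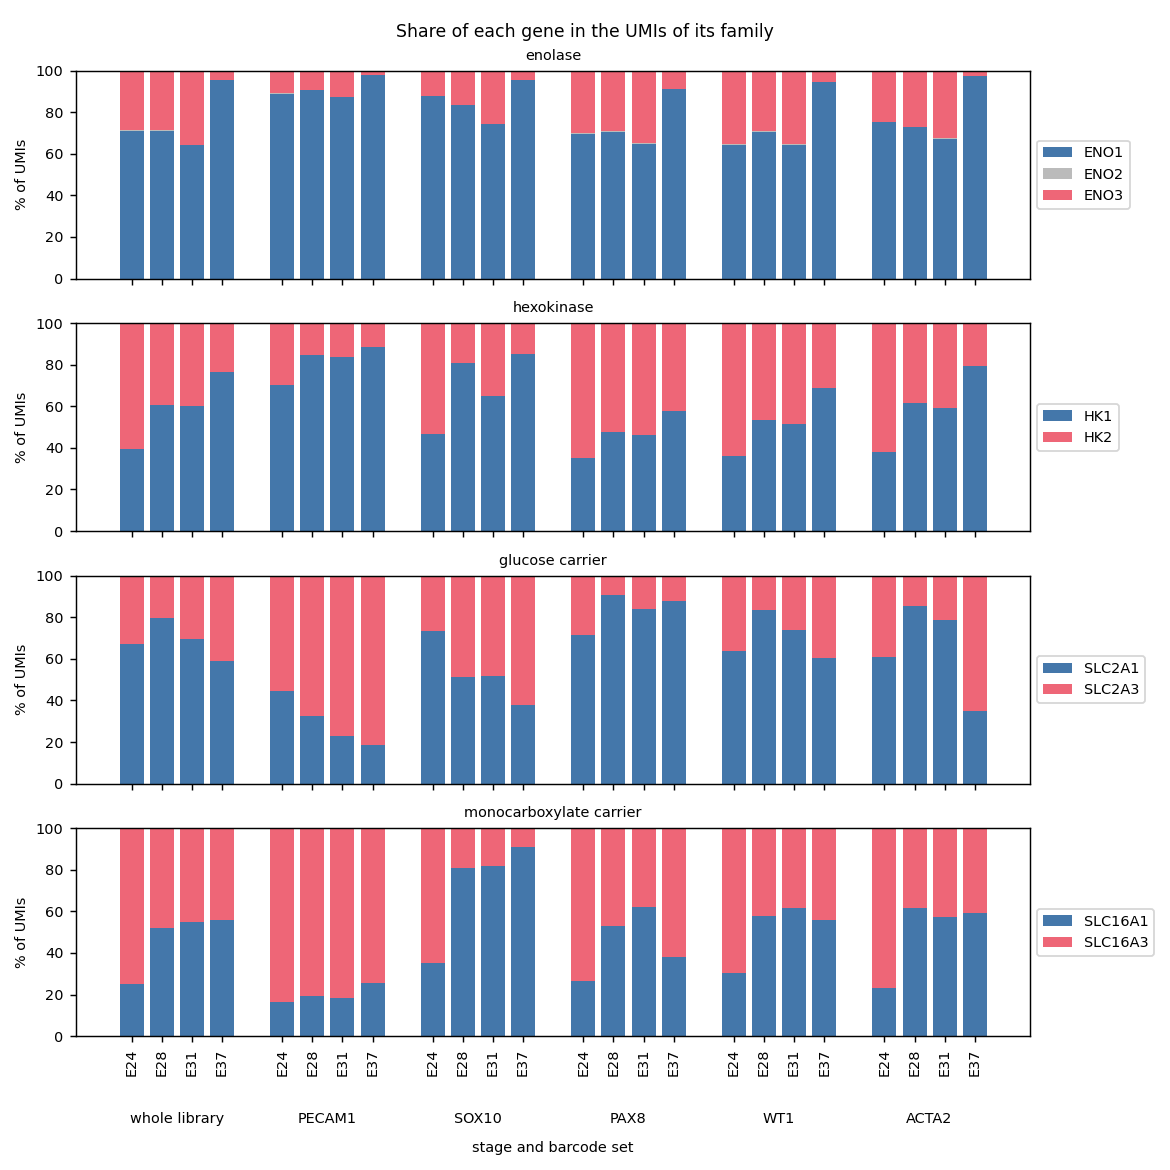
Each bar is 1 library, the whole of it or 1 marker set, with stage and set on the x axis and the percentage of the family's UMIs on the y axis, stacked by gene. ENO3 shrinks to 4.53% of enolase UMIs in the whole library at E37, and SLC2A3 outweighs SLC2A1 in PECAM1 barcodes at every stage.

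Single members also stood at higher levels in barcodes of other markers than in the rest of the library. In barcodes of ALAS2, the first enzyme of haem synthesis in red cells (200, 65, 59 and 120), HK1 stood at 136, 119.5, 117 and 99.8 CPM, 6.61-, 3.97-, 4.57- and 3.32-fold above the rest. SLC2A1 was 1.54-fold below the rest there at E24 and 2.39-, 2.78- and 2.49-fold above it later. Most other members were lower in ALAS2 barcodes, 26 of 31 at E28, where 75.9% of all genes were lower too.

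In barcodes of CSF1R, a macrophage receptor (55, 44, 76 and 84), SLC16A3 stood at 120.1, 83.6, 59.3 and 93.0 CPM, 1.96-, 6.87-, 7.45- and 11.2-fold above the rest. CA9 was 3.73-fold above at E28 and 5.39-fold at E31. Immediate early and heat shock genes were also higher in CSF1R barcodes, with 6598 CPM against 3981 in the rest at E37, and their part in this result was not tested. In barcodes of STMN2, a neuronal gene, SLC2A1 stood at 623 CPM at E24 (286 barcodes), 3.96-fold above the rest, with SLC16A3 at 139 CPM and ADM at 24.3 CPM, 2.35- and 6.81-fold above. In this E24 set 5 of 7 further neuronal markers were 2-fold or more above the rest, with a summed level of 305 against 82.9 CPM. At E37 the sum was 8429 against 253 CPM, so the neuronal label is less well borne out at E24. In barcodes of the muscle factor MYOG, ENO3 stood at 1752 CPM at E24 (45 barcodes) and 770.0 CPM at E31 (41 barcodes), 3.85- and 2.60-fold above the rest. ENO3 was not limited to these barcodes, since it stood at 565 CPM in WT1 barcodes at E24.

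**Figure D5:**
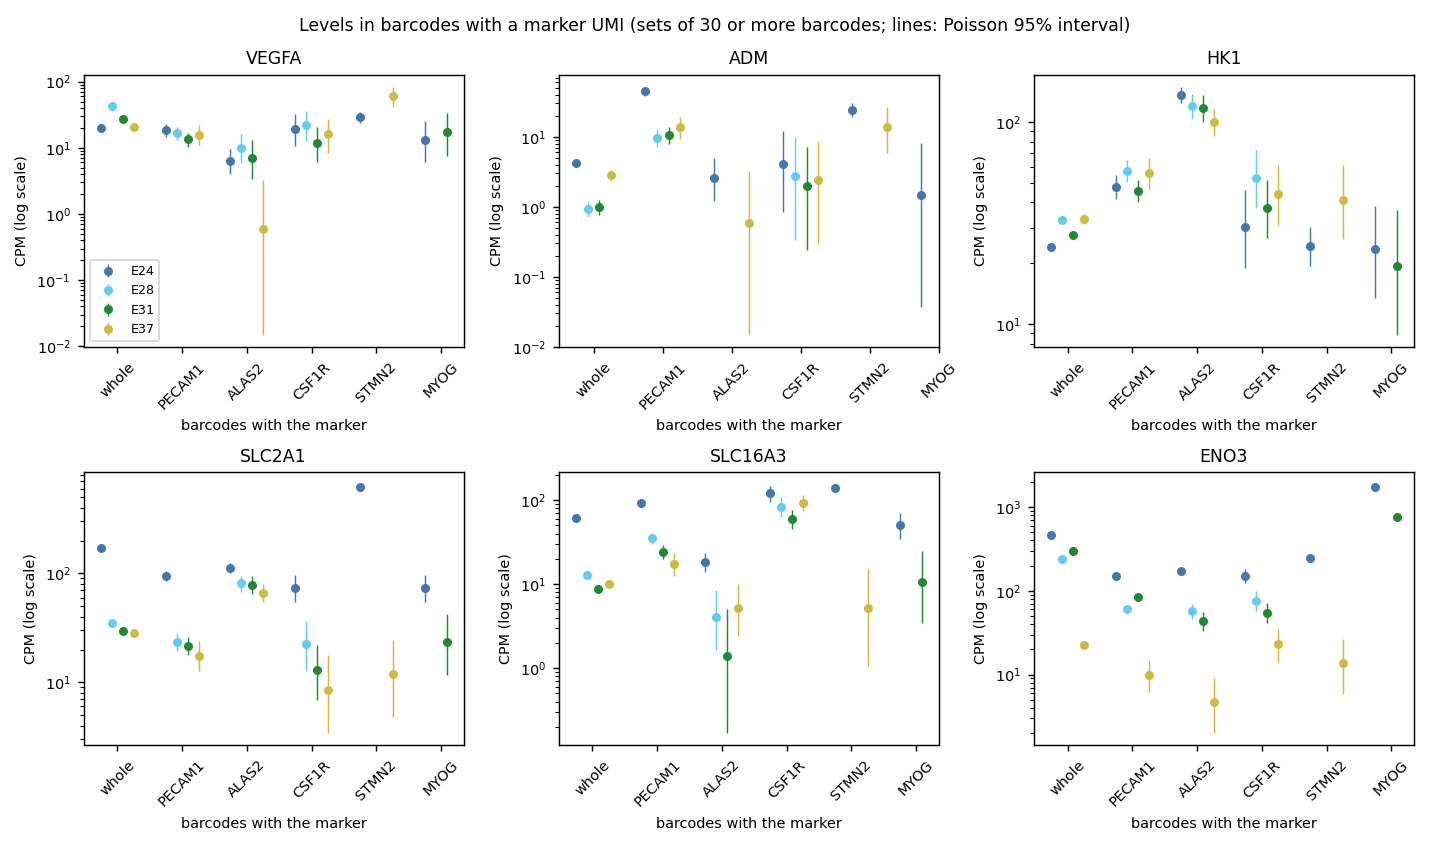
The x axis gives the whole library and barcodes with a UMI of PECAM1, ALAS2, CSF1R, STMN2 or MYOG, and the y axis CPM on a log scale, with points for stages and lines for exact Poisson 95% intervals; sets under 30 barcodes are not drawn. ADM is highest in PECAM1 barcodes at E24, E28 and E31, HK1 in ALAS2 barcodes, SLC16A3 in CSF1R and, at E24, STMN2 barcodes, and ENO3 in MYOG barcodes.

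Other genes of the same pathways were counted between E24 and E28, where 30.5% of all genes were higher and 10.7% lower. Of 9 oxygen sensing genes, 3 were higher and 1 lower, close to those shares. HIF1A, the alpha subunit of most cells, stood at 83.4, 101, 95.6 and 72.8 CPM and did not pass. EPAS1, the HIF2 alpha subunit of endothelium, stood at 8.12, 4.03, 3.35 and 10.7 CPM, 2.01-fold lower at E28 and 3.21-fold higher at E37 than at E31. The dimer partners ARNT2 and ARNT were 2.51- and 1.59-fold higher and HIF3A, an inhibitory form, 1.92-fold higher at E28.

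Of 11 other glycolytic genes 3 were higher, HKDC1, PFKFB2 and GALM, and 1 lower, TIGAR. Of 21 other hypoxia response genes 6 were higher and 4 lower. Only CA12 of the higher ones is named here. This membrane carbonic anhydrase was 18.4-fold higher (16.3 to 21.0) with 2.32, 42.7, 24.1 and 4.75 CPM. AK4 was 3.32-fold lower, HILPDA, a lipid droplet protein, 1.75-fold and STC2 1.92-fold. Of 18 genes of pyruvate entry and the citric acid cycle 4 were higher, led by PDK2, PDK4 and MPC2, and 1 lower, PDK3. Of 7 pentose phosphate genes 0 passed, and of 8 other carriers SLC2A12 was higher. None of these lists had a majority of genes lower at E28. The members did when pooled, though the enzymes taken alone did not. Members and lists were chosen with earlier results of these data known, and whether the lists differ was not tested.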

How the data were processed

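Each of the 4 libraries came as a matrix of raw UMI counts, with genes as rows and cell barcodes as columns; the authors made these deposited counts with Cell Ranger 2.1.0, per the submitters' processing notes. Genome build and gene annotation were not given in the sources used here, and the labels' protocols name both v2 and v3 chemistry without saying which library used which. Depth is given with the results. A single row without a gene name, with 0 UMIs, was left out of each matrix.

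Barcodes with under 500 genes were dropped (5 at E37), and doublets were not removed. UMIs were summed over the library, or over barcodes with at least 1 UMI of a marker, and divided by the total. Levels have exact Poisson, ratios exact conditional binomial and shares exact binomial 95% intervals. With 1 library per stage no test was made; 4 libraries cannot go below a two-sided exact sign test p of 0.125. A ratio was counted at 1.5-fold or more with at least 50 UMIs over both sides. Background percentages use all genes that met the UMI minimum. All 31 genes are accounted for, with values by library for those the results turn on. Genes of other lists were named as at most 3 per direction with the largest ratio, judged at the interval bound nearest to 1. Of the other hypoxia response genes higher at E28, only CA12 was named. Of 102 other listed genes 96 were found; ERO1L, FBP1, FBP2, LDHC, PGAM2 and SDHA, like LDHA, are not among the gene names. The members and lists were chosen with earlier results of these data known.

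Alternatives were a fold of 2, a minimum of 10 UMIs, equal weight per barcode, the deepest 5% of barcodes left out, ALAS2 barcodes left out, ratios divided by the median ratio, the 50 most abundant genes out of the denominator, 2 UMIs of the marker and barcodes in 1 set only. A further set of barcodes, on which the higher VEGFA level at E28 in the whole library and in WT1 barcodes depends, and a gene of another list are not reported here. The counting code was tested on simulated data. Python 3.11.15, numpy 2.4.6, scipy 1.17.1, pandas 2.3.3 and matplotlib 3.10.9 were used.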

Additional observations from a re-analysis of the deposited data

Results flagged for a closer look

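Between E31 and E37 some genes moved in opposite directions in different marker barcodes, each past 1.5-fold. The difference between the sets was not tested, since each stage has 1 library. ENO1 had a log2 ratio of 0.61 in PAX8 barcodes and -0.67 in ACTA2 barcodes. SLC2A1, the GLUT1 glucose carrier, had 1.15 in PAX8 and -1.09 in ACTA2 barcodes. EGLN3, the HIF-raised prolyl hydroxylase, had 0.75 in PECAM1 barcodes, against -1.48 in PAX8, -1.59 in WT1 and -1.52 in ACTA2 barcodes. The whole library at E37 held only 273 EGLN3 UMIs, so its ratios in these sets rest on few UMIs. The LDHA-named row LOC101867330 had 0.95 in PAX8 barcodes, against -1.01 in PECAM1 and -0.96 in ACTA2 barcodes. The PAX8 set had 121 barcodes and the ACTA2 set 160 at E37.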

How the results depend on the processing

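No paired analysis was possible because each stage has 1 library and no replicate number links samples. Of 96 whole-library ratios of single genes, 0 reversed and 0 moved by more than 1.5-fold over 480 values, without counting the limit on VEGFA. Dividing by the median ratio shifts every ratio of a comparison alike, by at most 0.24 on the log2 scale. Leaving out the 50 most abundant genes also shifts them alike, and by less. Neither alternative could move a ratio by 1.5-fold. Single genes within marker sets are not in this count, and some of their calls were lost under the alternatives. At a fold of 2, members lower from E24 to E28 in the whole library went from 17 to 7 and lower from E28 to E31 from 3 to 0. The 7 were carriers and hypoxia response genes: no enzyme among the members reached a fold of 2 at E28, with ENO3 nearest (1.92-fold). From E31 to E37 the higher went from 4 to 1 and the lower from 7 to 3. Of all genes, 6.07%, 3.12% and 8.05% were lower at those steps by a fold of 2, and 8.81% higher at the last. The 5 marker sets share barcodes, so sums over them count some barcodes more than once. Summed this way, a fold of 2 gave 4 higher and 33 lower at E28 (10 and 64 at 1.5-fold). It gave 1 higher and 1 lower at E31 (3 and 12) and 7 higher at E37 (22). By set, 4.78% to 15.3% of all genes were higher and 2.72% to 4.94% lower at E28 by a fold of 2. At E31 0.700% to 1.21% were higher and 1.20% to 2.54% lower, and at E37 2.48% to 8.16% were higher. Against the rest, a fold of 2 gave 4 higher and 10 lower (12 and 21), and the share of all genes at that fold is not given here. From E28 to E31, the 5 sets gave 8 higher with a minimum of 10 UMIs, where by set 5.96% to 10.7% of all genes were higher. They gave 5 higher without the deepest 5% of barcodes (3.16% to 4.70% of all genes). With barcodes in 1 set only they gave 7 lower (4.95% to 8.01% of all genes). The median ratio gave 1 higher in the whole library (0 before), where 4.29% of all genes were higher. The ENO3 share was 36.7% at E31 without the deepest barcodes, and 37.4% at E31 and 4.85% at E37 with equal weights. The HK1 share at E24 was 35.8% without ALAS2 barcodes, 37.1% without the deepest and 37.5% with equal weights; it was 74.3% at E37 without ALAS2 barcodes, and 78.6% in ACTA2 barcodes at E31 in 1 set only (59.1% before). The summed enzymes' log2 ratio of E28 over E24 (-0.45) became -0.44 with equal weights and -0.68 with the median ratio. That of the hypoxia response genes (-0.68) became -0.64 and -0.92 in the same order and -0.65 without the deepest barcodes. The cause of these shifts was not tested. Depth limits ADM, ENO2 at E37, EGLN3 in marker sets at E37 and most members in SOX10 barcodes.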

Other observations

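Between E31 and E37 the other hypoxia response genes moved both ways in the whole library. Of 21 measured, 5 were higher and 3 lower, where 15.0% of all genes were higher and 15.3% lower. ANGPTL4, a secreted inhibitor of lipoprotein lipase, was 9.34-fold higher, LOX, which crosslinks collagen, 2.69-fold, and DDIT4, an inhibitor of mTORC1 signalling, 1.98-fold. CA12 was 5.07-fold lower, BHLHE40, a transcriptional repressor, 5.41-fold and PLOD2, a collagen lysyl hydroxylase, 3.27-fold lower. Of the 9 oxygen sensing genes, HIF3A was 3.27-fold and EPAS1 3.21-fold higher and 0 were lower. Of 18 genes of pyruvate entry and the citric acid cycle 0 were higher, and PDK4 and MPC2 were lower.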
